A study of Mus musculus and Rattus norvegicus with 35 samples.

Results

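Cytosolic ribosomal protein genes encode the proteins of the ribosome that works outside mitochondria. They were taken by symbol alone: Rpl or Rps followed by a number with at most 1 further letter, by the letter a, or by p0, p1 or p2 for the stalk. The rule found 81 genes among the 24601 of the mouse gene table and 78 among the 22409 of the rat gene table. Rpl7a and Rpl28 were among those found under their symbols in mouse and not in rat. The rule also takes in 4 paralogs with an added letter l, namely Rpl3l, Rpl10l, Rpl39l and Rps27l. The rule itself uses no measured value.

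A ribosome has a small subunit, which reads the mRNA, and a large subunit, which joins the amino acids. Nearly all proteins of the subunits (Rps for small, Rpl for large) are needed in equal amounts, the acidic stalk proteins being the exception, and the genes are usually expressed together and at high levels, most of all in growing and dividing cells. Many of their mRNAs begin with a C and a run of pyrimidines, the 5' terminal oligopyrimidine tract, through which the mTOR pathway controls their translation. In neurons, mRNAs of this class have also been found in dendrites and axons.

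The samples were RNA libraries of C57BL/6 mice and Sprague Dawley rats, with no genetic change named. Mouse libraries came from 5 tissues (brain, heart, liver, lung and testis), 1 library each at 14 weeks (2 for brain) and 2 each at 20 weeks. They also came from hippocampus at E18, P1, P10 and P30 (2 libraries each) and from 4-week hippocampus as synaptosomes, a fraction enriched in pinched-off nerve endings, and as whole homogenate (1 each). The CA1 region of 4-week mice and rats had been cut into neuropil, the layer of dendrites and axons, and somata, the layer of cell bodies (1 library each per species). Rat hippocampal neurons cultured to DIV 28 had been given 40 µM bicuculline, a GABA-A receptor blocker that raises network activity, or water as control for 12 h (2 libraries each). All libraries were depleted of rRNA except 1 of 14-week brain, which was selected on oligo-dT beads. Of the 35 samples, 34 had a column in the gene tables; a long-read P30 library was not used here.

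The values are TPM, transcript abundances corrected for transcript length, in which every library has the same sum, so a TPM level is a share of the RNA and not an amount per cell. The read depth behind them is unknown. In bulk samples fewer cells of a type and less RNA per cell cannot be told apart. The labels do not say whether replicates were separate animals or cultures, so p-values measure the spread between libraries, which may be technical. The labelled tissues carried their own markers: the summed level of 5 heart muscle genes was 27775 to 38563 TPM in heart, and the 5 testis germ cell genes summed to 29193 to 48286 TPM in testis and to at most 30.8 TPM in the other tissues. The 5 neuron markers in the mouse table summed to 2805 to 3204 TPM in brain and to at most 9.88 TPM in heart, liver, lung and testis, with Tubb3 listed at 0 in every mouse library.

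Of the 81 mouse genes, 77 to 79 reached 1 TPM in any one library, and of the 78 rat genes 74 to 77 did. Rpl13, of the large subunit, was listed at 0 in all 28 mouse libraries and is not described further. In rat, Rps19 was listed at 0.379 to 2.68 TPM and Rps4x at 8.38 to 15.0 TPM, far below the median of the set, 719 to 986 TPM over the rat libraries. Ribosomal protein genes have many processed pseudogenes, and reads shared with such copies can be lost or split in counting, so levels of single genes carry that uncertainty.

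Where the RefSeq promoter table for GRCm38.p6 held a gene, its annotated start was searched for the tract: a C followed by at least 4 letters that are each C or T, on the transcribed strand, beginning within 10 bases of the start. The table held 60 of the 81 genes, and 38 of them (63.3%) had a tract there, against 34.4% of the 27025 genes in the table. A C that meets this rule stood exactly at the annotated start in 13 of the 60 (21.7%), against 3.01% of all genes. These counts include runs of pyrimidines that began before the start. In the windows below, capitals mark the tract from the C nearest the start that meets the rule. The windows show the last 12 bases before the start and the first 16 transcribed bases. They were chosen to show the feature in genes of both subunits and the stalk, and its place in 3 genes described further on that are paralogs or X-linked.
Rps6 (chr4:86857352-86857379, minus strand): cggaagtcgggcCTCTTTTTCgtgacgc
Rps15a (chr7:118116132-118116159, minus strand): tctttctgccatCTTCCCTCgccggtga
Rps27 (chr3:90213633-90213660, minus strand): tccgctttcgctCCTTTCCggcggtgac
Rpl15 (chr14:18270971-18270998, minus strand): ggagaaagccttCTTCCTTTCCTCTggc
Rpl28 (chr7:4792953-4792980, plus strand): cctctcgtgtctCTCTTTCCgtctccgg
Rplp2 (chr7:141447639-141447666, plus strand): gtcagcgtcttcCTTTCgccgccggacg
Rpl39l (chr16:10170216-10170243, plus strand): ccaggcCTTTCCggatttccggtggtcg
Rpl10l (chr12:66284386-66284413, minus strand): ggCCTCCattttgcggctggcggtgggc
Rpl39 (chrX:37085207-37085234, minus strand): aagctccgCCTCTagcgacttcttctaa

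In the first 6 genes the marked stretch began at the annotated first base. In Rpl39l, Rpl10l and Rpl39 it began 6, 10 and 4 bases before that base. In Rps6, Rps27, Rpl15, Rpl28, Rplp2 and Rpl39l an earlier C of the same run also met the rule. Their runs thus began before the marked stretch. Rplp0, Rpsa, Rpl10 and Rps4x had no tract in this window, which says only that these letters are not there in the annotation used.

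The genes took a large and changing share of the RNA. Their summed TPM was 17.6% and 15.3% of all TPM in the E18 hippocampal libraries, 17.9% and 15.2% at P1, 11.3% and 9.84% at P10, and 7.76% and 6.41% at P30. Among tissues it was 5.87% ± 0.207 in brain, 5.94% ± 0.366 in heart, 4.05% ± 0.104 in liver, 6.95% ± 0.244 in lung and 4.85% ± 1.19 in testis (SD, n = 3 each). Embryonic and newborn hippocampus stood above every other library, and liver had the lowest mean, with its libraries overlapping the 20-week testis libraries. Of the 100 most abundant genes, 61 to 64 were ribosomal protein genes at E18, 24 to 28 at P30, 33 to 35 in lung and 1 to 3 in liver.

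**Figure D1:**
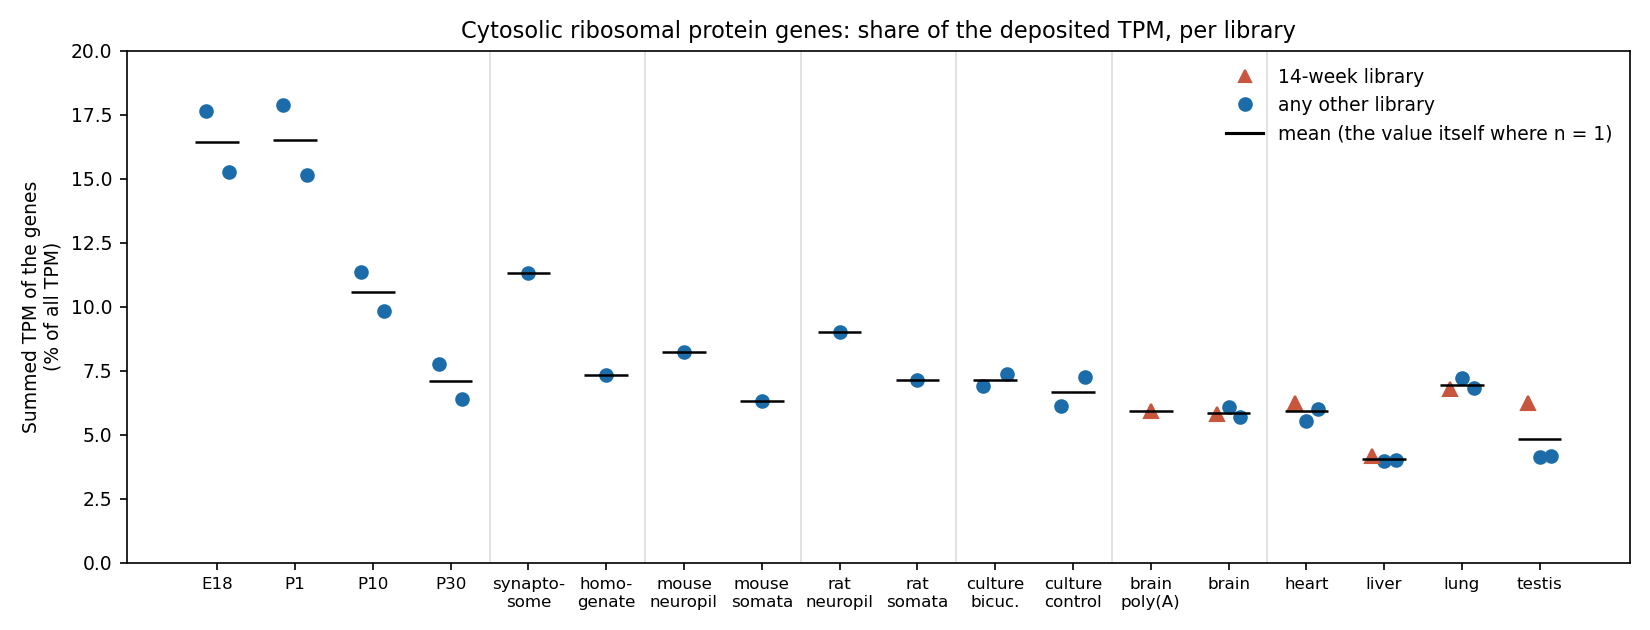
Summed TPM of the cytosolic ribosomal protein genes as a percentage of all TPM (y axis) in each of the 34 libraries, by group (x axis). Triangles are 14-week libraries, circles all others, and bars group means; E18 and P1 lie between 15.2% and 17.9%, and adult tissues between 3.98% and 7.23%.

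Hippocampal stages were compared to follow the genes through development, from the embryo at E18 through birth and the growth of synapses to P30. Nearly every ribosomal protein gene fell. Of 77 genes tested in P30 against E18 hippocampus, 76 were lower and none was higher at a limma adjusted p under 0.05, against 26.8% of 15444 genes lower and 29.5% higher over all genes. The median log2 difference of the 77 genes was -1.24, with quartiles at -1.45 and -1.05, and that of all genes tested was 0.01. Both subunits moved together: the median was -1.32 over 32 small subunit genes and -1.17 over 45 large subunit genes. In all 76 genes each P30 library lay below each E18 library, which holds for 39.3% of all genes, and in none did each lie above, which holds for 40.3%.

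Among the genes with the largest falls were Rplp0, Rps15a, Rps26 and Rps12. Rplp0, the base of the stalk that recruits elongation factors, measured 2406 and 2119 TPM at E18, 2609 and 2133 TPM at P1, 1252 and 1158 TPM at P10, and 592 and 448 TPM at P30. Its log2 difference, P30 minus E18, was -2.13 ± 0.17 (SE; limma adjusted p = 7.99e-06). P10 lay wholly below P1, and P30 wholly below P10. Rps15a, of the small subunit, measured 4854 and 3764 TPM at E18, 4195 and 3417 TPM at P1, 2836 and 2016 TPM at P10, and 1346 and 1068 TPM at P30, with a log2 difference of -1.83 ± 0.22 (SE; limma adjusted p = 8.37e-05). The X-linked Rpl10, Rpl39 and Rps4x fell as well, with log2 differences of -1.43, -1.65 and -1.64. Rps26 and Rps12, both of the small subunit, had log2 differences of -1.75 and -1.69 (limma adjusted p = 1.22e-05 and 0.000127).

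Rps6, the small subunit protein phosphorylated downstream of mTOR, measured 1125 and 1082 TPM at E18, 1010 and 970 TPM at P1, 691 and 664 TPM at P10, and 554 and 533 TPM at P30. Its libraries lay lower at each later stage, and the log2 difference of P30 minus E18 was -1.02 ± 0.12 (SE; limma adjusted p = 8.76e-05). Rpsa, the small subunit protein also known as the laminin receptor, had 537 ± 86.5 TPM at P30 and 1422 ± 169 TPM at E18 (SD, n = 2 each), a log2 difference of -1.41 ± 0.17 (SE; limma adjusted p = 0.000101). Rps27a, a fusion of ubiquitin with a small subunit protein, had 712 ± 131 TPM at P30 and 1506 ± 212 TPM at E18 (SD, n = 2 each), a log2 difference of -1.09 ± 0.18 (SE; limma adjusted p = 0.000831).

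The acidic stalk proteins differed in size of change. Rplp1 had 2342 ± 550 TPM at P30 and 3660 ± 542 TPM at E18, and Rplp2 had 836 ± 206 TPM at P30 and 1808 ± 288 TPM at E18 (SD, n = 2 each). The log2 differences were -0.66 ± 0.22 for Rplp1 and -1.12 ± 0.22 for Rplp2 (SE; limma adjusted p = 0.0313 and 0.00177), and the call of Rplp1 was lost without P30 replicate 2 (-0.41, limma adjusted p = 0.204) or E18 replicate 1 (-0.50, limma adjusted p = 0.171). The smallest called fall was that of Rpl3, which lies near the peptidyl transferase centre of the large subunit. It measured 1539 and 1481 TPM at E18 and 1212 and 979 TPM at P30, a log2 difference of -0.47 ± 0.14 (SE; limma adjusted p = 0.0192) that missed the threshold without P30 replicate 2 (-0.32, limma adjusted p = 0.129), E18 replicate 1 (-0.44, limma adjusted p = 0.0808) or E18 replicate 2 (-0.50, limma adjusted p = 0.0565). The 1 gene of 77 that was not called, Rps21, is named here after its values were seen: it had 3104 and 2336 TPM at E18 and 2518 and 1566 TPM at P30, which overlap, and a log2 difference of -0.44 (limma adjusted p = 0.206).

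The paralog Rps27l fell with its parent. Rps27l had 93.9 ± 19.6 TPM at P30 and 247 ± 61.4 TPM at E18 (SD, n = 2 each), and its log2 difference was -1.38 ± 0.21 (SE; limma adjusted p = 0.000466). Rps27 had 2372 ± 277 TPM at P30 and 5100 ± 615 TPM at E18 (SD, n = 2 each), with a log2 difference of -1.10 ± 0.18 (SE; limma adjusted p = 0.000664). The other 3 paralogs were near 0 at every stage: Rpl10l was listed at 0 in all 8 stage libraries, Rpl3l reached at most 0.623 TPM and Rpl39l at most 1.43 TPM.

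The fall began after birth. Between P1 and E18 no gene of the 77 was called by limma in either direction and none had an unadjusted p under 0.05, against 1.2% of all genes called higher and 0.524% lower. The median log2 difference was 0.00. The 3 genes with the smallest p were Rps25 (1976 ± 123 TPM at P1, 1715 ± 151 TPM at E18), Rps6 (990 ± 28.3 TPM at P1, 1103 ± 30.1 TPM at E18) and Rpl38 (4469 ± 145 TPM at P1, 3987 ± 171 TPM at E18; SD, n = 2 each), with limma adjusted p of 0.595, 0.620 and 0.658. Over the 77 genes the 95% intervals of the log2 difference, P1 minus E18, reached -0.68 at the lowest and 0.69 at the highest.

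P10 libraries had 65 of 77 genes lower than P1 and none higher (limma adjusted p under 0.05; 18.0% of all genes lower, 17.2% higher), with a median log2 difference of -0.67. Rps16, Rps10 and Rps19, all of the small subunit, were among the largest falls. Rps16 had 655 ± 169 TPM at P10 and 1463 ± 65.0 TPM at P1 (SD, n = 2 each), with a log2 difference of -1.18 ± 0.18 (SE; limma adjusted p = 0.00118). Rps19 had 1863 ± 101 TPM at P10 and 3752 ± 385 TPM at P1 (SD, n = 2 each) and a log2 difference of -1.01 ± 0.16 (SE; limma adjusted p = 0.00156). The count of 65 was 17 without P10 replicate 2, 27 without P1 replicate 1 and 42 with no filter on low values, while 73 of the 77 genes had both P10 libraries below both P1 libraries (37.6% of all genes) and none had both above (31.2%).

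In P30 against P10, 47 of 77 genes fell and none rose (limma adjusted p under 0.05; 12.5% of all genes lower, 17.0% higher), with a median log2 difference of -0.55. Rps2, Rplp0, Rpl39, Rpsa and Rps20 fell most. Rps2, of the small subunit, had 899 ± 186 TPM at P30 and 2132 ± 297 TPM at P10 (SD, n = 2 each) and a log2 difference of -1.25 ± 0.18 (SE; limma adjusted p = 0.00136). It was also the single gene of the 77 whose difference from P1 to P10 lay above 0, at 0.05. Rps16, the gene that fell most by P10, had 590 and 557 TPM at P30 against 775 and 536 TPM at P10, which overlap, and a log2 difference of -0.17 over that interval (limma adjusted p = 0.499). The count of 47 was 15 without P10 replicate 1, 17 without P30 replicate 2 and 25 with no filter on low values. P30 replicate 2, on which the calls of Rpl3 and Rplp1 against E18 also rested, differed in make-up. Its 10 most abundant genes took 12.5% of TPM, which leaves less of the sum for other genes. They took 4.13% in P30 replicate 1 and 4.96% to 6.21% in the libraries of the earlier stages.

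**Figure D2:**
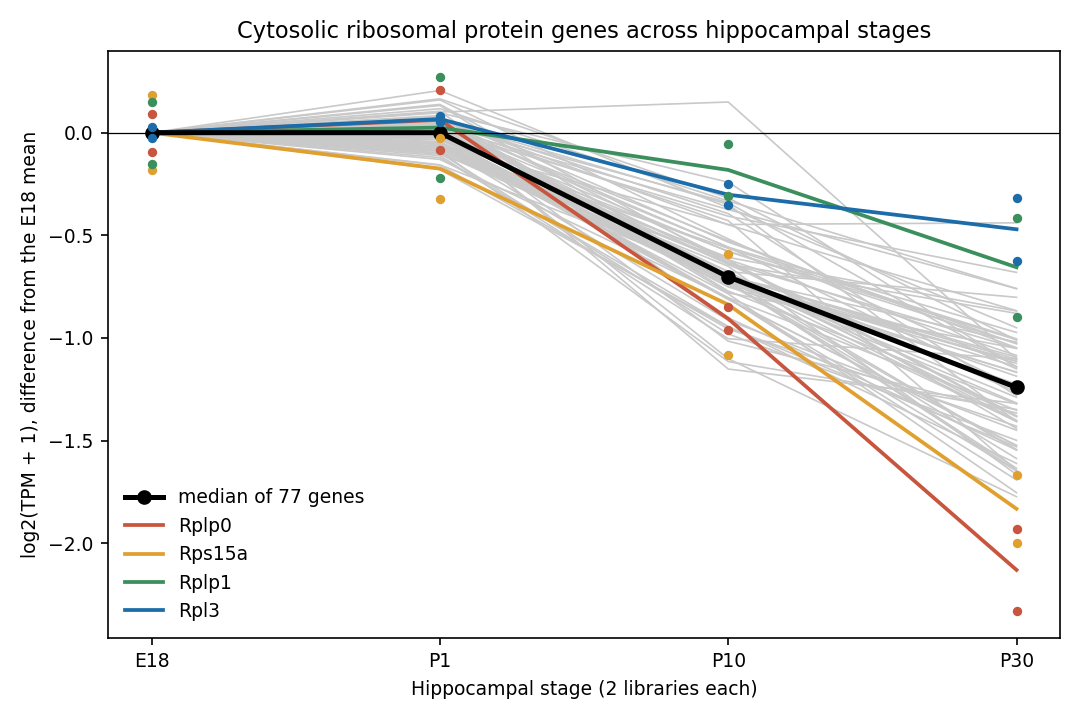
Difference of each of 77 cytosolic ribosomal protein genes from its E18 mean, as log2(TPM + 1) (y axis), at 4 hippocampal stages (x axis). Grey lines are single genes, the black line their median, coloured lines 4 named genes with a dot per library; the median stays at 0.00 at P1 and is -1.24 at P30, with Rplp0 at -2.13 and Rpl3 at -0.47.

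Other genes of protein synthesis moved less uniformly in P30 against E18. Of 40 ribosome biogenesis genes 26 fell and 1 rose, with a median log2 difference of -0.66, of 11 elongation factor genes 8 fell and 2 rose, and of 37 initiation factor genes 20 fell and 2 rose. Over all genes 26.8% were called lower and 29.5% higher. Npm1, a nucleolar chaperone, had 314 ± 28.0 TPM at P30 and 887 ± 154 TPM at E18 (SD, n = 2 each), a log2 difference of -1.49 (limma adjusted p = 4.35e-05). Eef1a2, the elongation factor of mature neurons and muscle, went the other way: 667 ± 7.15 TPM at P30 and 63.6 ± 14.9 TPM at E18 (SD, n = 2 each), a log2 difference of 3.39 (limma adjusted p = 5.47e-07). Of 73 mitochondrial ribosomal protein genes 14 fell and 8 rose, both under the shares over all genes, with a median of -0.09. Gnb2l1, which encodes Rack1, a scaffold on the small subunit, had 458 ± 114 TPM at P30 and 1848 ± 321 TPM at E18 (SD, n = 2 each), a log2 difference of -2.02 (limma adjusted p = 7.42e-05), and Fau, whose protein is cut to yield a ribosomal protein, had a log2 difference of -0.95 (limma adjusted p = 0.0035). Of 17 genes listed for control of the tract-bearing mRNAs or of ribosome production 6 fell and 5 rose, near the shares over all genes, with a median of -0.13. Mycn and Myc in that list, transcription factors that drive ribosome production, had log2 differences of -2.89 and -1.83 (limma adjusted p = 3.82e-06 and 0.000105).

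Cell markers moved with these stages. The summed level of 6 progenitor and cycling cell markers was 37.8 to 50.5 TPM at P30 and 343 to 393 TPM at E18. The 5 oligodendrocyte markers summed to 8529 to 9627 TPM at P30 and to 25.2 to 25.9 TPM at E18. The 5 neuron markers summed to 3043 to 3388 TPM at P30 and to 353 to 438 TPM at E18, and the 4 blood markers to 756 to 1099 TPM at P30 and 1997 to 2224 TPM at E18. Their part in the fall of the ribosomal protein genes was not tested.

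Tissues were compared each with the mean of the other 4, in 1 limma fit of 15 libraries without the poly(A) library. Single genes set tissues apart most clearly: 2 paralogs were near 0 outside testis and 1 was near 0 outside heart, and the X-linked genes were low in testis. In testis, 6 of 80 genes tested were higher and 36 lower than in the other tissues (32.9% of all genes higher, 47.8% lower), with a median log2 difference of -0.35 against -0.41 over all genes. Relative to the median of the set, 26 were higher and 17 lower in testis (39.3% of all genes higher, 29.9% lower), with the X-linked genes 4 of 4 lower and 23 of the 71 autosomal genes higher and 11 lower.

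Rpl39l, a paralog of the large subunit gene Rpl39 on chromosome 16, had 1062, 872 and 890 TPM in testis and at most 1.47 TPM in any of the 12 other libraries. Rpl39 itself, on the X chromosome, had 77.8, 78.2 and 72.9 TPM in testis and 243 to 744 TPM elsewhere. No library of either gene overlapped between testis and the other tissues, and Rpl39l made up 92.5% ± 0.709 of the summed level of both in testis (SD, n = 3). The log2 differences, testis minus the other tissues, were 9.52 ± 0.24 for Rpl39l (SE) and -2.64 ± 0.22 for Rpl39 (SE; limma adjusted p = 5.18e-08). Rpl39l met the filter of 1 TPM in at least 3 libraries only through testis, so its call there adds nothing to these levels.

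Rpl10l, an intronless copy of Rpl10 on chromosome 12, ran in parallel. It had 354, 210 and 207 TPM in testis and at most 1.06 TPM in the other tissues, while X-linked Rpl10, whose protein is among the last to join the large subunit, had 154, 128 and 104 TPM in testis and 689 to 1570 TPM in the others. Both genes lay apart, in opposite directions. The log2 differences were 7.66 ± 0.24 for Rpl10l (SE) and -2.99 ± 0.15 for Rpl10 (SE; limma adjusted p = 2.51e-10), and Rpl10l was 66.1% ± 3.76 of the summed level of both in testis (SD, n = 3). Like Rpl39l, Rpl10l met the filter on low values only through testis, so its call there adds nothing to these levels.

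The other 2 X-linked genes were low in testis too. Rps4x, of the small subunit, had 106, 75.9 and 74.2 TPM in testis and 569 to 1366 TPM in the other tissues, a log2 difference of -3.38 ± 0.14 (SE; limma adjusted p = 3.11e-11). Rpl36a, of the large subunit, had 104, 76.4 and 79.4 TPM in testis and 307 to 739 TPM in the others, a log2 difference of -2.64 ± 0.20 (SE; limma adjusted p = 1.96e-08). All 4 X-linked genes thus lay below the other tissues in every library, which 14.5% of all genes do. Of 71 autosomal genes of the set that are not such paralogs, 30 were lower and 4 higher, with a median log2 difference of -0.32 and a lowest of -1.62. Among genes outside the set, 378 of 641 on the X chromosome (59.0%) and 49.3% of 15461 on autosomes were lower in testis, with median log2 differences of -0.83 and -0.45.

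Paralogs of Rps4x and Rpl36a that the symbol rule leaves out were read as well. Rps4y2, by its symbol a further Rps4 gene, had 97.7, 36.9 and 32.3 TPM in testis and 7.58 to 30.9 TPM in the other rRNA-depleted tissue libraries, a log2 difference of 1.79 ± 0.38 (SE; limma adjusted p = 0.000681). Rpl36al, the autosomal paralog of Rpl36a, had 281, 302 and 279 TPM in testis, inside the 246 to 555 TPM of the others, and its log2 difference was -0.22 ± 0.11 (SE; limma adjusted p = 0.0903).

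Among autosomal genes Rps20, Rpl41 and Rps7 had the largest rises in testis after the 2 paralogs. Rps20, of the small subunit, had 1403, 1551 and 1693 TPM in testis and 441 to 1228 TPM in the other tissues, a log2 difference of 1.06 ± 0.20 (SE; limma adjusted p = 0.000237). Rpl41, which encodes the smallest protein of the ribosome, had 3432, 2368 and 2446 TPM in testis and 616 to 2339 TPM in the others, a log2 difference of 0.90 ± 0.25 (SE; limma adjusted p = 0.00408). Both lay above every other library, as 4 of the 80 genes and 21.1% of all genes did. Rps3, of the small subunit near the mRNA entry, was the lowest autosomal gene: 130 ± 12.2 TPM in testis (SD, n = 3) and 416 ± 110 TPM in the other tissues (SD, n = 12), a log2 difference of -1.62 ± 0.11 (SE; limma adjusted p = 1.02e-08). Rpsa, Rplp1, Rplp2, Rps6 and Rps27a were also lower in testis, with log2 differences of -1.28, -1.004, -0.66, -0.62 and -0.56 (limma adjusted p = 0.00523, 0.0291, 0.000308, 0.00157 and 0.0339), while Rps27 and Rplp0 were not called. Relative to the median of the set Rpsa was still called (-0.74), and Rplp1 (-0.46), Rplp2 (-0.12), Rps6 (-0.08) and Rps27a (-0.02) were not. Without the first or the second 20-week testis library neither Rplp1 (limma adjusted p = 0.137 and 0.155) nor Rps27a (limma adjusted p = 0.239 and 0.207) was called, and Rps27a was not at equal medians (limma adjusted p = 0.0933).

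**Figure D3:**
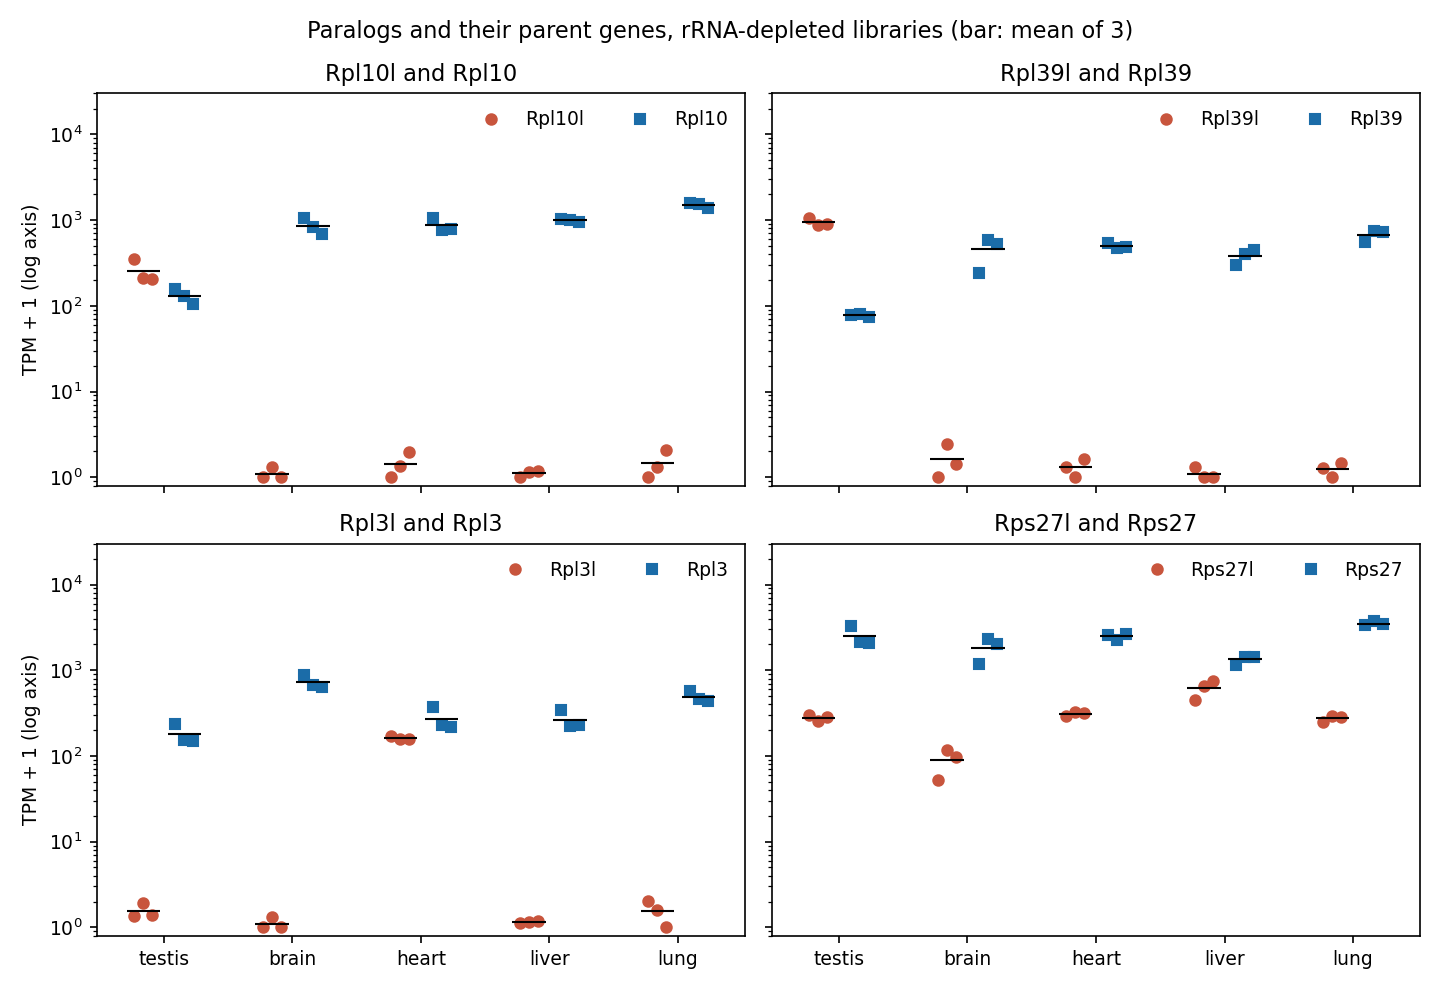
TPM + 1 on a log axis (y) for 4 paralogs (circles) and their parent genes (squares) in 5 tissues (x), with 1 point for each of the 3 rRNA-depleted libraries and a bar for their mean. Rpl39l and Rpl10l rise above 200 TPM in testis alone and Rpl3l above 150 TPM in heart alone, while Rps27l is expressed in all 5 tissues and reaches 446 to 754 TPM in liver.

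Heart carried the third tissue-restricted paralog. Rpl3l, a copy of Rpl3 known from striated muscle, had 170, 156 and 158 TPM in heart and at most 1.02 TPM in the other tissues, a log2 difference of 6.96 ± 0.19 (SE). It met the filter of 1 TPM in at least 3 libraries only through heart, so its call there adds nothing to these levels. Rpl3 had 369, 227 and 219 TPM in heart, within the 148 to 886 TPM of the others, so the parent stayed the more abundant and Rpl3l made up 38.0% ± 5.68 of both (SD, n = 3). Of the 80 genes 18 were higher in heart and 2 lower (19.7% of all genes higher, 45.1% lower). Relative to the median of the set 4 were higher and 5 lower (13% of all genes higher, 50.4% lower). At equal medians 31 were higher and 2 lower (shares of all genes not counted). The number higher was 12 to 26 with 1 library left out. Of the 80 genes 2, Rpl3l among them, lay above every library of the other tissues (5.22% of all genes), and none lay below (2.07%). Rps2 and Rps4x were also higher, by log2 differences of 1.19 and 1.12 (limma adjusted p = 0.000316 and 1.1e-05), the second measured against a mean that includes the low testis.

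Rps27l, a paralog of Rps27 induced by p53 in other cells, was expressed in every tissue and differed most between liver and brain. It had 446, 661 and 754 TPM in liver, 292 to 321 TPM in heart, 256 to 296 TPM in testis, 250 to 291 TPM in lung and 51.9, 117 and 96.5 TPM in brain. Liver lay above and brain below every library of the other tissues; in liver Rps27l was the 1 such gene of 80 (5.07% of all genes), and 11 lay below (21.2%). The log2 difference was 1.52 ± 0.20 in liver (SE; limma adjusted p = 9.05e-06) and -2.03 ± 0.20 in brain (SE; limma adjusted p = 6.08e-07), each against the other 4 tissues. Rps27l was 31.3% ± 3.15 of the summed level of Rps27l and Rps27 in liver and 4.53% ± 0.344 in brain (SD, n = 3 each).

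Brain was marked by Rpl3. It had 886, 677 and 636 TPM in brain and 148 to 573 TPM in the other tissues, a log2 difference of 1.39 ± 0.20 (SE; limma adjusted p = 2.72e-05), and was the 1 gene of the set above every other library (18.6% of all genes), as Rps27l was the 1 below (1.48%). Of the 80 genes 17 were higher in brain and 7 lower (45.4% of all genes higher, 28.0% lower). Rpl6, Rps21, Rps3 and Rpl9 followed, with log2 differences of 0.87, 0.80, 0.77 and 0.69, but with libraries scaled to equal medians Rpl6 was no longer called (0.05) and Rps21, Rps3 and Rpl9 turned to -0.02, -0.05 and -0.13. Rplp0 was lower in brain, at 277 ± 155 TPM (SD, n = 3) and 560 ± 230 TPM in the other tissues (SD, n = 12), a log2 difference of -1.05 ± 0.32 (SE; limma adjusted p = 0.00889) whose limma adjusted p was 0.0584 when the first and 0.0704 when the second 20-week brain library was left out. The count of 17 was 9 without 20-week brain replicate 1 and 27 without the 14-week testis library.

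In liver 46 of 80 genes were lower and 3 higher (72.6% of all genes lower, 10.9% higher), and in lung 39 were higher and 3 lower (47.5% of all genes higher, 25.4% lower). These directions rest on the scaling: over all genes the median log2 difference was -1.02 in liver and 0.42 in lung. With libraries scaled to equal medians, liver had 56 genes higher and 3 lower, lung 2 higher and 20 lower, and brain 1 higher and 45 lower. The shares of all genes at that scaling were not counted, so these counts cannot be set against them. Counts relative to the median of the set itself, a scaling added after the data were seen, were 7 higher and 8 lower in liver (13% of all genes higher, 50.5% lower), 9 higher and 7 lower in lung (27.6% higher, 32.8% lower), and 7 higher and 12 lower in brain (35.9% higher, 29.1% lower). Within the 20-week libraries alone, 7 genes were higher and 65 lower in liver (11.2% of all genes higher, 75.9% lower), and 70 higher and 4 lower in lung (49.6% higher, 27.5% lower). In the same libraries 44 were higher and 10 lower in brain (49.7% of all genes higher, 28% lower), 46 higher and 6 lower in heart (20.9% higher, 51.7% lower), and 8 higher and 57 lower in testis (36.1% higher, 46.5% lower). Over all 15 libraries, the lower genes in heart (Rpl39l and Rpl10l) and in lung (Rpl39l, Rpl10l and Rpl3l) were the paralogs that other tissues carry, as were 3 of the 7 in brain. These paralogs entered the fit only through the tissue that carries them, so their calls as lower elsewhere add nothing.

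Among single genes in liver, Rps15a had 634 ± 32.0 TPM in liver (SD, n = 3) and 1426 ± 252 TPM in the other tissues (SD, n = 12), below every other library, and its log2 difference was -1.15 ± 0.11 as deposited (SE; limma adjusted p = 4.96e-07) and -0.76 relative to the median of the set, although at equal medians it was 0.15 and not called. Rpl10, at 998 ± 48.6 TPM in liver (SD, n = 3), was higher by 0.71 ± 0.15 (SE; limma adjusted p = 0.000665) against a mean that includes the low testis. Its liver libraries, at 945 to 1040 TPM, lay within the range of brain and heart and below lung. In lung the 4 genes with the largest rises were the X-linked Rps4x, Rpl10, Rpl39 and Rpl36a, with log2 differences of 1.61, 1.43, 1.26 and 1.10 against a mean that includes the low testis. At equal medians Rps4x (0.78) and Rpl10 (0.60) were still called, while Rpl39 (0.43, limma adjusted p = 0.17) and Rpl36a (0.27, limma adjusted p = 0.364) were not. Rps4x had 1349, 1366 and 1350 TPM and Rpl10 1570, 1532 and 1367 TPM in lung, both above every other library, where Rps4x reached 1197 TPM in heart and Rpl10 1051 TPM in brain. Rps19, the gene most often mutated in Diamond-Blackfan anaemia in humans, had 1250 ± 246 TPM in lung (SD, n = 3) and 619 ± 240 TPM in the others (SD, n = 12), which overlap, and its call was lost at equal medians (log2 difference 0.26).

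The 20-week and 14-week tissue libraries differed in a way that cut across tissues. This comparison was added after the data were seen, and age cannot be told apart from any batch in which the 14-week and 20-week libraries were made. With tissue as a term, limma called 9 of 77 genes higher and 28 lower at 20 weeks (5.70% of 16018 genes higher, 10.8% lower). Rpl19, of the large subunit, had 329 to 343 TPM in 20-week brain against 1095 TPM at 14 weeks, and 120 to 127 TPM in 20-week testis against 570 TPM at 14 weeks. Over all tissues it had 120 to 371 TPM at 20 weeks and 565 to 1095 TPM at 14 weeks, with no overlap and a log2 difference of -1.63 ± 0.11 (SE; limma adjusted p = 5.04e-06). Rpl28, Rps18 and Rplp1 were likewise below every 14-week library, with log2 differences of -1.13, -1.12 and -1.11 (limma adjusted p = 0.00138, 0.000123 and 0.00013), so that 4 of 77 genes and 22 of 16018 (0.137%) lay apart in this direction, and none of the 77 and 0.0187% of all genes in the other. Rps14 had the second largest fall, -1.62 ± 0.19 (SE; limma adjusted p = 0.000176), with 20-week lung overlapping 14-week liver.

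Rps16 was the gene with the largest rise at 20 weeks, and it was uneven. It had 486 and 493 TPM in 20-week brain against 22.8 TPM at 14 weeks, 684 and 697 TPM in 20-week lung against 140 TPM, 432 and 443 TPM in heart against 193 TPM, 415 and 384 TPM in liver against 357 TPM, and 277 and 261 TPM in testis against 282 TPM. Brain and lung differed most and testis hardly at all. The log2 difference over all tissues was 1.58 ± 0.44 (SE; limma adjusted p = 0.0254), and it was 0.89 (adjusted p = 0.0544) without the 14-week brain library and 1.41 (adjusted p = 0.0906) without the 14-week lung library. Rpl23, Rps26, Rpl13a and Rpl30 followed with log2 differences of 0.66, 0.56, 0.54 and 0.53, of which Rps26 was not called without the 14-week brain library (0.38, limma adjusted p = 0.0632) or the 14-week lung library (0.45, limma adjusted p = 0.084). The number higher was 18 without the 14-week testis library and 5 without the 14-week lung library, and the number lower was 15 at equal medians. Markers of other tissues moved with this contrast: 2 of 5 heart muscle, 2 of 5 liver and 2 of 5 testis germ cell markers were called higher at 20 weeks, with median log2 differences of 1.13, 1.00 and 1.14 over each list, and 1 of 5 microglia and 2 of 4 blood markers were lower. The germ cell markers summed to 21.0 and 5.55 TPM in 20-week heart against 0.736 TPM at 14 weeks, and to 20.0 and 30.8 TPM in 20-week lung against 1.03 TPM at 14 weeks. Their part in the differences of the ribosomal protein genes was not tested. The share of the set in testis moved with these libraries as well, at 4.12% and 4.19% of TPM at 20 weeks and 6.22% at 14 weeks.

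**Figure D4:**
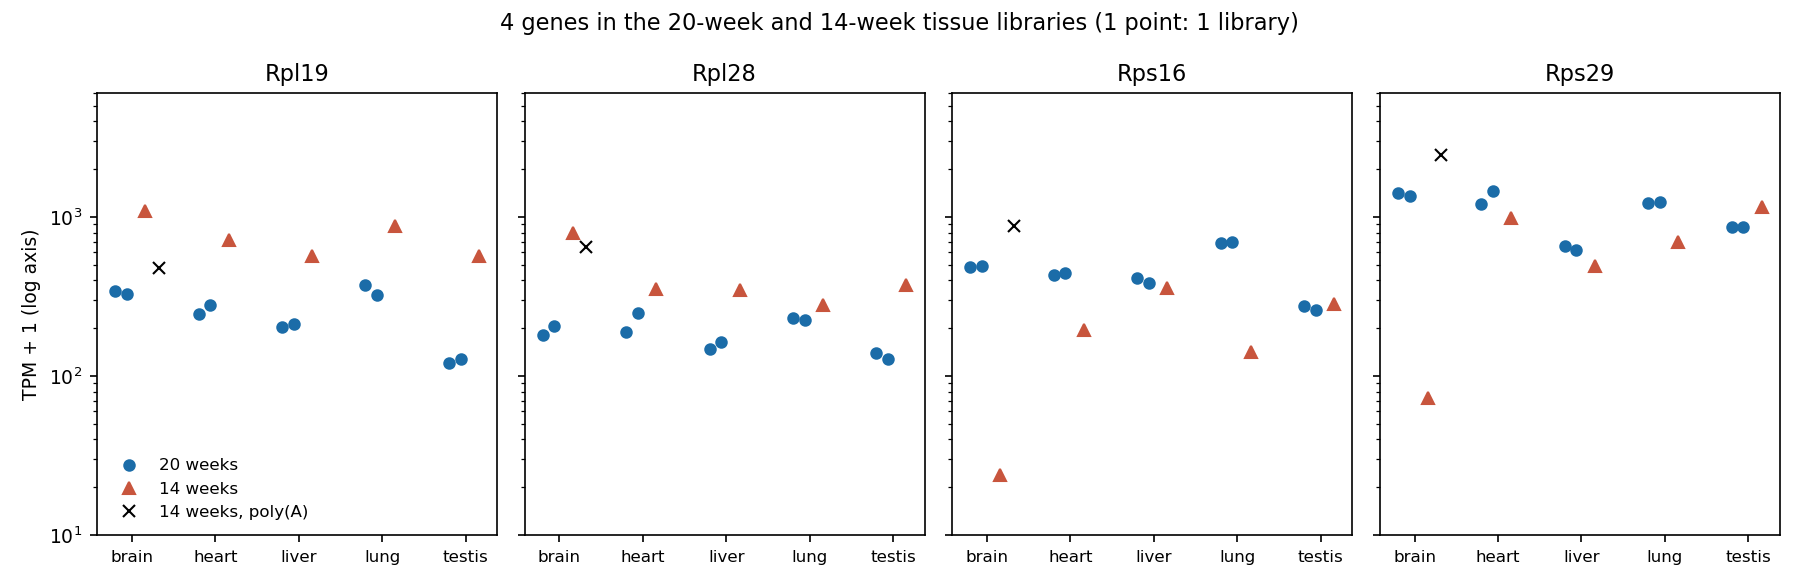
TPM + 1 on a log axis (y) of Rpl19, Rpl28, Rps16 and Rps29 in 5 tissues (x), with circles for 20-week, triangles for 14-week and a cross for the poly(A)-selected 14-week brain library. Rpl19 and Rpl28 lie lower at 20 weeks in every tissue, and Rps16 and Rps29 stand at 22.8 and 71.5 TPM in the rRNA-depleted 14-week brain.

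The poly(A)-selected and rRNA-depleted 14-week brain libraries, 1 each, compare methods of library making, and there is no test. The set took 5.91% of TPM in the poly(A) library and 5.82% in the depleted one. Of 78 genes measured, 7 were more than 2-fold higher and 7 more than 2-fold lower in the poly(A) library (9.07% of 15595 genes higher, 15.9% lower), and the median log2 difference was -0.18 against -0.25 over all genes; at equal medians it turned to 0.15. Rps16 had 876 TPM in the poly(A) library and 22.8 TPM in the depleted library, a log2 difference of 5.20. Rps29 had 2462 TPM in the poly(A) library and 71.5 TPM in the depleted library, a log2 difference of 5.09. The 20-week depleted brain libraries had 1425 and 1362 TPM of Rps29, so the depleted 14-week library was the one that stood apart for both genes. Rpl41 and Rps28 were next, with log2 differences of 1.99 and 1.30.

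Rpl15 and Rps6 were lowest in the poly(A) library. Rpl15, of the large subunit, had 123 TPM with poly(A) selection and 498 TPM with depletion (log2 difference -2.005), and Rps6 had 237 TPM with poly(A) selection and 706 TPM with depletion (-1.57). Rpl29 and Rpl7 followed at -1.49 and -1.27. Rpl19, which split the ages, had 479 TPM in the poly(A) library and 1095 TPM in the depleted library of the same age.

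Synaptosomes were compared with hippocampal homogenate to see which RNA goes with nerve endings. The genes were on the whole higher in synaptosomes: 72 of 77 had a log2 difference above 0, against 34.0% of 14854 genes, and the median was 0.55 against -0.29 over all genes. The summed share was 11.3% of TPM in the synaptosome and 7.34% in the homogenate library. At more than 2-fold, 3 genes were higher and 1 lower (5.83% of all genes higher, 14.0% lower), and 23 were higher at equal medians (share of all genes not counted). With 1 library a group these differences have no replicate check.

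Rpl13a, of the large subunit and the GAIT complex, had 7350 TPM in synaptosomes and 3051 TPM in homogenate, a log2 difference of 1.27. Rps21 had 6669 TPM in synaptosomes and 2904 TPM in homogenate (1.199), and Rps12 2444 TPM in synaptosomes and 1199 TPM in homogenate (1.03). Rpl37a came next, just under 2-fold, with 1571 TPM in synaptosomes and 796 TPM in homogenate (0.98). Rps16 again stood apart on the low side, with 22.3 TPM in synaptosomes and 157 TPM in homogenate (-2.76), and Rps26 had 370 TPM in synaptosomes and 672 TPM in homogenate (-0.86). The listed level of Rps16 also varied between replicates of the rat cultures. It was 109 and 517 TPM with bicuculline and 103 and 543 TPM in controls. Rpl3 and Rps28 had log2 differences of -0.24 and -0.06, which at equal medians were 0.06 and 0.24. The ribosome biogenesis genes lay the other way: 2 of 40 had a difference above 0, with a median log2 difference of -0.74, and 4 of 37 initiation factor and 11 of 73 mitochondrial ribosomal protein genes did.

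Summed glial markers were also higher in this fraction. The 5 astrocyte markers summed to 2682 TPM in synaptosomes and 819 TPM in homogenate, the 5 oligodendrocyte markers to 10325 TPM in synaptosomes and 5430 TPM in homogenate, and the 5 microglia markers to 508 TPM in synaptosomes and 157 TPM in homogenate. The oligodendrocyte markers differed among themselves: 4 of 5 had a log2 difference above 0, over a range from -0.77 to 1.85 with a median of 0.25. The 5 neuron markers summed to 1592 TPM in synaptosomes and 3690 TPM in homogenate. Their part in the rise of the ribosomal protein genes was not tested.

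The CA1 layers set neuropil, the layer of dendrites and axons, against the layer of cell bodies in both species. In mouse 76 of 77 genes had a log2 difference of neuropil minus somata above 0 (50.1% of 14948 genes), and in rat 72 of 77 did (56.2% of 14164 genes). The median was 0.36 in mouse and 0.34 in rat, against 0.00 and 0.09 over all genes. No gene was more than 2-fold higher or lower in either species (8.22% of all genes higher and 0.970% lower in mouse, 8.35% higher and 1.47% lower in rat). The summed share was 8.22% of TPM in mouse neuropil and 6.32% in mouse somata, and 9.01% in rat neuropil and 7.14% in rat somata.

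The genes at the top and bottom were largely shared. Rplp0 had 672 TPM in mouse neuropil and 416 TPM in mouse somata (log2 difference 0.69), and 1351 TPM in rat neuropil and 784 TPM in rat somata (0.78). Rpsa had log2 differences of 0.72 in mouse and 0.74 in rat, and Rps2 of 0.77 and 0.68. At the other end Rpl3 had 1016 TPM in mouse neuropil and 1010 TPM in mouse somata (0.01), and 830 TPM in rat neuropil and 875 TPM in rat somata (-0.08). Rps6 had 402 TPM in mouse neuropil and 382 TPM in mouse somata (0.07), and 110 TPM in rat neuropil and 106 TPM in rat somata (0.05).

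Over the 72 genes at 10 TPM or more in all 4 libraries, Pearson's r between the mouse and rat differences was 0.75 and Spearman's rho 0.73, as a description across genes of 1 pair of libraries each. Of the 10 highest genes in each species 6 were the same (Rpl29, Rplp0, Rplp1, Rps15, Rps2 and Rpsa), and of the 10 lowest 7 (Rpl10, Rpl24, Rpl3, Rpl6, Rpl7, Rps3a and Rps6). Besides Rpl3, Rpl15 (-0.06 in mouse, 0.28 in rat) and Rps13 (0.13 in mouse, -0.01 in rat) had differences of opposite sign. As with synaptosomes, 6 of 40 mouse biogenesis genes had a difference above 0, with a median log2 difference of -0.28, and 7 of 38 in rat, with a median of -0.22.

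**Figure D5:**
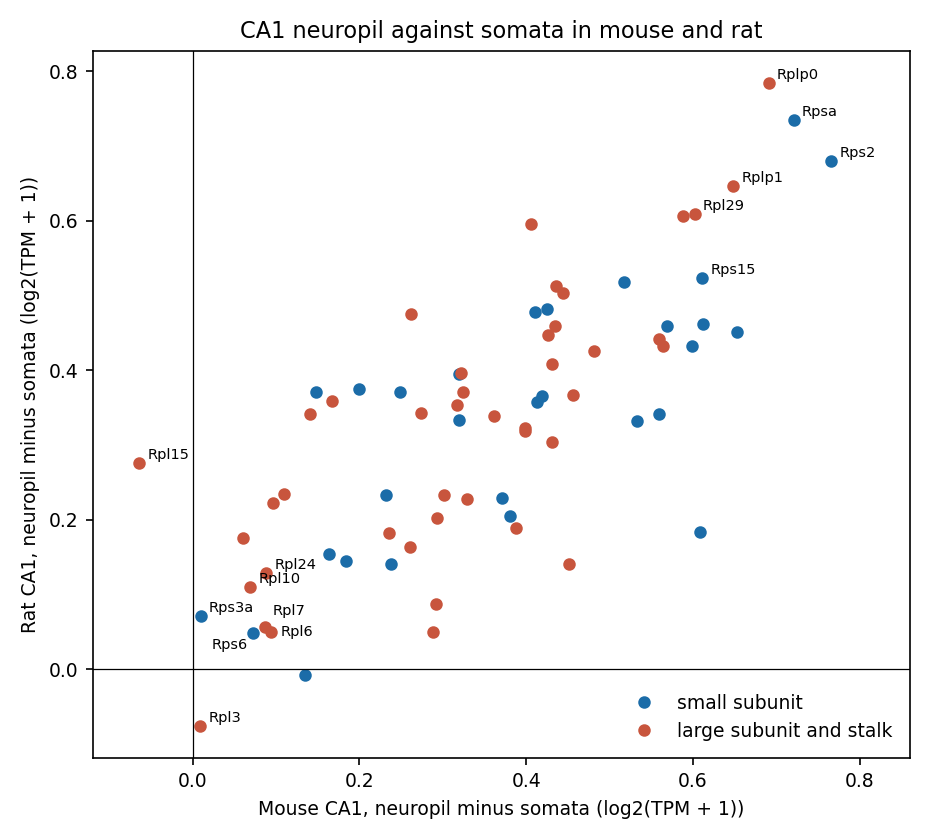
Log2 difference of neuropil minus somata in mouse CA1 (x axis) and rat CA1 (y axis), 1 point for each of 72 genes, blue for the small subunit and red for the large subunit and stalk. Most points lie above 0 on both axes, with Rps2, Rpsa and Rplp0 at the upper right and Rpl3 at the lower left.

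In the neuropil libraries glial and blood vessel markers were higher too. The 5 astrocyte markers summed to 1974 TPM in mouse neuropil and 730 TPM in mouse somata, and to 4019 TPM in rat neuropil and 1787 TPM in rat somata. The 4 endothelial markers summed to 263 TPM in mouse neuropil and 93.2 TPM in mouse somata, and to 311 TPM in rat neuropil and 132 TPM in rat somata. The 5 microglia markers summed to 413 TPM in mouse neuropil and 182 TPM in mouse somata. Neuron markers went the other way. In mouse 5 of them summed to 2340 TPM in neuropil and 2717 TPM in somata. In rat 6 of them summed to 3440 TPM in neuropil and 4155 TPM in somata. The part of all these markers in the differences of the ribosomal protein genes was not tested.

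In cultured rat neurons bicuculline left no gene called in the fit without replicate numbers. None of 76 genes passed the limma threshold in either direction and none had an unadjusted p under 0.05, against 2.06% of 13341 genes called higher and 0.510% lower. The median log2 difference was 0.09, against -0.07 over all genes, with 63 genes above 0 and 13 below. Both bicuculline libraries lay above both controls in 19 genes (20.9% of all genes) and below them in none (30.5%). The summed share was 6.89% and 7.39% of TPM with bicuculline and 6.12% and 7.25% in controls, which overlap. The 3 genes with the smallest p were Rpl17 (660 to 743 TPM with bicuculline, 568 to 582 TPM in controls), Rps20 (868 to 945 TPM with bicuculline, 674 to 794 TPM in controls) and Rps13 (962 to 987 TPM with bicuculline, 769 to 857 TPM in controls). Their log2 differences were 0.28, 0.31 and 0.26 (limma adjusted p = 0.281, 0.296 and 0.310). With the replicate number as a block all 3 were called (limma adjusted p = 0.0313, 0.0164 and 0.0384). The share of all genes called with the block was not counted. Libraries of the same number deviated together, at a correlation of 0.588. The labels do not say what a number marks. The ribosomal protein paralog Rpl22l1, outside the symbol rule, was higher by 1.14 ± 0.14 (SE; limma adjusted p = 0.0249).

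The study's circular RNA tables, which count back-spliced junctions, held almost none from these genes. Of 28482 mouse circRNAs 7 were assigned to a gene of the set, all to Rpl24, and of 18075 rat circRNAs none was. Among genes at 1 TPM or more in any library, 28.8% of 20389 in mouse and 31.5% of 14801 in rat had at least 1 circRNA. The 7 circRNAs spanned 1812 to 26936 bp on chromosome 16, in mm9 coordinates of the authors' table, from 55980708 to 56007643. On GRCm38, a different build from mm9, RefSeq places Rpl24 (5163 bp) at 55966275 to 55971437. The neighbouring gene Zbtb11 (37477 bp) stands at 55971437 to 56008913. Read at face value, all 7 circles lay past the end of Rpl24 and within Zbtb11. Positions were not converted between the builds, so the assignment to Rpl24 is uncertain. The most widely found circle, of 1812 bp, was above 0 in 8 libraries, with at most 2.196 RPM, the authors' normalised read number, in the synaptosome library.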

How the data were processed

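TPM values per gene were deposited by the authors for 34 libraries, in 1 mouse and 1 rat table, and RPM values per circular RNA were deposited by the authors likewise, with no denominator given in the sources used here. Per the labels' protocols, RNA was extracted with TRIZOL and sequenced on Illumina instruments after rRNA depletion, or after poly(A) selection for 1 brain library. CASAVA 1.8.2, TopHat2 2.0.6, Cufflinks 2.2.1, mm9 and rn5 are named per the submitters' processing notes, without roles. TPM holds no read depth, so the precision of a value is known from replicates alone, and read-counting models could not be used. A mouse long-read library was not analysed here.

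Differences were computed on log2(TPM + 1), a scale that understates changes of low genes. For groups with replicates, limma 3.58.1 (R 4.3.3; moderated with a mean trend) was fitted on all genes at 1 TPM or more in at least 3 tissue, 2 hippocampal, 2 culture or 5 age libraries. Benjamini-Hochberg adjustment ran over all of them, with a threshold of 0.05. The tissue contrasts share 1 fit of 15 libraries, and the stage contrasts 1 fit of 8; stage contrasts share libraries. Single-library pairs were described by the log2 difference, past 2-fold, over genes at 1 TPM or more in either library. The fits were tested on simulated data. Tables and figures were made with Python 3.11.15, pandas 2.3.3 and matplotlib 3.10.9.

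Genes named in the text are the 5 largest called rises and falls of each comparison, or the 3 smallest p where none passed, and the 4 highest and lowest differences of each pair at 10 TPM or more. The 4 paralogs with their parents, Rps6, Rpsa, Rps27a, the stalk genes and the 3 smallest p of each related list were added, and exceptions are stated; results for a few genes are not reported here. The members and lists were chosen with earlier results of these data known. Replicate numbers were treated as names, since the labels do not say that a number marks a shared animal, litter or batch. Samples with the same number did deviate together to some degree. The correlations were all positive, from 0.0555 to 0.351 over the hippocampal stages and 0.588 in culture. The share of the set was higher in replicate 1 than in replicate 2 at every hippocampal stage. The main fits of tissues, stages and cultures do not use this pairing. Alternatives were other pseudocounts and filters, libraries scaled to equal medians, 20-week libraries alone, a replicate block and leaving out each library.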

Additional observations from a re-analysis of the deposited data

Results flagged for a closer look

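In CA1, 4 genes had neuropil-minus-somata differences of opposite sign in mouse and rat, each from 1 pair of libraries, and the difference between species was not tested. On the log2 scale Rpl15 was at -0.0646 in mouse and 0.28 in rat, Rpl3 at 0.00863 in mouse and -0.0754 in rat, Rps4x at 0.20 in mouse and -0.32 in rat, and Rps13 at 0.13 in mouse and -0.00731 in rat. Rat Rps4x was listed at 8.57 TPM in neuropil and 11.0 TPM in somata.

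The 20-week minus 14-week log2 difference of Rps16 ran from positive to slightly negative across tissues. It was 4.36 in brain, 2.29 in lung, 1.17 in heart, 0.16 in liver and -0.0688 in testis, with 2 libraries at 20 weeks and 1 at 14 weeks in each. The difference between tissues was not tested.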

How the results depend on the processing

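The fall of the set from E18 to P30 kept its direction and 72 to 76 lower genes when each library was left out in turn, and 76 at equal medians; with no filter on low values 1 gene was higher. No stage gave a higher gene at equal medians or with a library left out. P10 against P1 gave 17 to 65 lower genes with a library left out and 42 with no filter, and P30 against P10 gave 15 to 45 and 25.

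Tissue counts depended on the scaling, and the cause was not tested. At equal medians, brain had 1 higher and 45 lower, heart 31 higher and 2 lower, liver 56 higher and 3 lower, and lung 2 higher and 20 lower. The shares of all genes at equal medians were not counted. Scaled to the median of the set, a choice made after seeing the data, brain had 7 higher and 12 lower, heart 4 and 5, liver 7 and 8, lung 9 and 7, and testis 26 and 17. With 20-week libraries alone, brain had 44 higher, heart 46 higher and 6 lower, lung 70 higher and testis 57 lower. Liver had 7 higher there and far more lower, and the full counts for each tissue are given above. With a library left out, higher and lower counts were 9 to 27 and 5 to 9 in brain, 12 to 26 and 2 to 3 in heart, 2 to 4 and 31 to 48 in liver, 27 to 43 and 3 in lung, and 6 to 8 and 27 to 45 in testis. The 20-week comparison gave 5 to 18 higher and 24 to 28 lower, and 15 lower at equal medians.

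At equal medians the log2 difference turned in brain for Rps21 (-0.0173), Rps3 (-0.0536), Rpl9 (-0.13), Rpl10 (-0.41), Rps4x (-0.36) and Rps6 (-0.44), in liver for Rps15a (0.15), Rps27 (0.40), Rpl3 (0.84), Rps6 (0.90) and Rplp2 (0.61), and in lung for Rpl3 (-0.16), Rps6 (-0.30), Rplp2 (-0.26) and Rps27a (-0.25). It gave 23 synaptosome genes past 2-fold with a median of 0.86, a rat neuropil median of 0.22, and for poly(A) 3 genes lower and a median of 0.15. A pseudocount of 0.1 gave 1 rat neuropil gene past 2-fold.

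With a replicate block, higher genes numbered 27 in brain, 29 in heart, 10 in testis and 3 with bicuculline (Rpl17, Rps20 and Rps13). The shares of all genes with this block were not counted, so these counts cannot be set against them. The labels do not say that a number marks a shared animal, litter or batch; the 14-week libraries share an age. Correlations of their deviations ran from 0.0555 to 0.351 over the hippocampal pairs and, over the tissues, from 0.156 to 0.506 for the 14-week libraries and from 0.0658 to 0.227 and 0.107 to 0.284 for the first and second 20-week libraries, and the culture had 1 pair per number, at 0.588.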

Other observations

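Other genes of protein synthesis differed in testis from the 4 other tissues in both directions. Of 37 initiation factor genes 18 were higher and 8 lower (32.9% of all genes higher, 47.8% lower), led by Pabpc1, the cytoplasmic poly(A)-binding protein, and by the X-linked Eif2s3x, a subunit of the factor that brings the initiator tRNA. Pabpc1 averaged 677 TPM in testis and 159 TPM in the other tissues, a log2 difference of 2.39, and Eif2s3x 9.25 TPM in testis and 106 TPM in the other tissues, a log2 difference of -3.34. Eef1a2 had a log2 difference of -4.84 and Eef1d, a subunit of the exchange factor for eEF1A, of 1.52. Of 17 genes listed for control of tract-bearing mRNAs or of ribosome production, 14 were lower and 2 higher. Akt1 (-2.50), Tsc2 (-2.23) and Rheb (-1.69) were among the lower ones. In heart 59 of 73 mitochondrial ribosomal protein genes were higher and none was lower by limma (19.7% of all genes higher, 45.1% lower), with a median log2 difference of 0.93, against 0.23 for the cytosolic set.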
